A study of Mus musculus with 16 samples.

Results

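CAF1 is a line of fibroblasts taken from a mammary carcinoma of the MMTV-PyMT mouse, and it was set against NF2 and NF3, lines of fibroblasts from normal mammary gland. In MMTV-PyMT mice the long terminal repeat of mouse mammary tumour virus drives the polyoma middle T oncogene in mammary epithelium. The comparison used 6 of the 16 arrays of the series: 2 cultures of CAF1, 2 of NF2 and 2 of NF3, chosen by the line named in each label, which are 3 of 8 lines. All lines are of the FVB/N background, were immortalised with the E6 gene of human papillomavirus, received no treatment and were cultured for 72 h in medium with 10% serum on a deformable gel made of Matrigel with type I collagen. The E6 gene, whose protein directs degradation of p53, is thus shared by the normal lines and by CAF1. RNA of each culture was read on 1 Illumina bead array. The labels do not say if the 3 lines came from different mice, how old those mice were, or how arrays were grouped on chips and in labelling. With 1 carcinoma line, what follows describes CAF1 and not carcinoma fibroblasts in general, and p-values set line means against the spread between cultures, which may be technical.

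Fibroblasts build the collagen matrix of the mammary gland and, when they sit in or around a tumour, are called cancer-associated fibroblasts. Such cells are known for several programmes, among them a contractile one with smooth muscle actin and an inflammatory one with chemokines and cytokines. The inflammatory genes fall largely under a pair of pathways: NF-kappa-B, which is freed by Toll-like and cytokine receptors and induces its own inhibitors, and type I interferon signalling, in which STAT and IRF factors bind a response element near interferon-stimulated genes.

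All 12 fibroblast markers on the array were detected on both CAF1 arrays, and 10 of them on all 4 normal arrays. None of the 12 was called different, where 1.8% of all tested genes were called higher and 0.657% lower. Of other cell type markers, 10 of 11 for mammary epithelium and 9 of 10 for leukocytes were detected on none of the 6 arrays. Keratins 5, 8, 14 and 18, Cdh1, Ptprc, Adgre1 and Itgam were among them. The same held for 7 of 9 for endothelium, 6 of 10 for pericytes and 5 of 9 for adipocytes. It also held for 4 of 7 for mesothelium and 6 of 7 for skeletal muscle. For Schwann cells it held for 1 of 3, and the other 2 were detected on both CAF1 arrays. The arrays detected 9599 and 9394 probes in the CAF1 cultures, 9600 and 7929 in NF2, and 7602 and 7445 in NF3, so 3 of the 4 normal arrays detected fewer than either CAF1 array, and the part of detection depth in what follows was not tested. The CAF1 cultures resembled each other more closely (Pearson r = 0.994 across tested probes, which are not independent replicates) than the cultures of NF2 (0.953) or NF3 (0.936).

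CAF1 differed from both normal lines at 134 genes in the upward and 49 in the downward direction. A call here means that CAF1 differed from NF2 and from NF3 the same way, each at a Benjamini-Hochberg adjusted p under 0.05 in limma over the 10453 tested probes. By probe, 173 were higher (1.66%) and 63 lower (0.603%), and by gene, each standing for its brightest tested probe, 1.8% and 0.657% of 7454. Taken alone, CAF1 differed from NF2 at 305 probes (2.92%) and from NF3 at 720 (6.89%), while NF3 differed from NF2 at 15 (0.143%). Called or not, both CAF1 arrays lay above all 4 normal arrays at 1785 probes (17.1%) and below all 4 at 1604 (15.3%). A lack of overlap, given below for single genes, was thus common across the array. Of the 134 higher genes, 58 were detected on none of the 4 normal arrays, including the NF2 array that detected as many probes as CAF1, and of the 49 lower genes, 10 were detected on neither CAF1 array. Csta3, Slc15a3, Rxfp1, Mrap, Oas2, Il6, H2-D1, Psmb8 and Ngfr were among genes detected on the 2 CAF1 arrays alone. These passed the detection filter (detected on at least 2 of 16 arrays) only through the line where they are high. For 48 higher and 15 lower genes the difference from the nearer normal line exceeded 2 on the log2 scale. E2f2, Slc48a1 and Mreg lay just inside the threshold, the last at an adjusted p of 0.0484, and Adamtsl4, Podxl2 and Tmem176b just outside at 0.0521. Without the CAF1 culture 1 the counts fell to 74 higher and 12 lower probes, and without culture 2 to 59 and 8. Without NF3 culture 1 they were 211 and 98. With arrays scaled by their medians in place of quantiles, the median difference of all probes moved from 0.002 to 0.286 and the split of calls from 73.3% to 90.5% higher (210 against 22), and differences in that setting are relative to 0.286. Of the 53 called genes that are named by rule, 22 kept their call in all 12 alternative settings tried for each gene: Saa3, Lrrc15, Ldoc1, Oas1g, Csta3, Slc15a3, Cxcl5, Agtr1a, Bnc1, Cxcl10, Tnfaip3, Icam1, Sod2, Sema3a, Rxfp1, Mrap, Galnt9, Plxna2, Msx1, Mgp, Ebf2 and Chst2. The others lost it in at least 1 setting: 29 when only the 6 arrays were fitted, 28 without CAF1 culture 2, 27 without CAF1 culture 1 and 17 or fewer in each other setting.

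**Figure D1:**
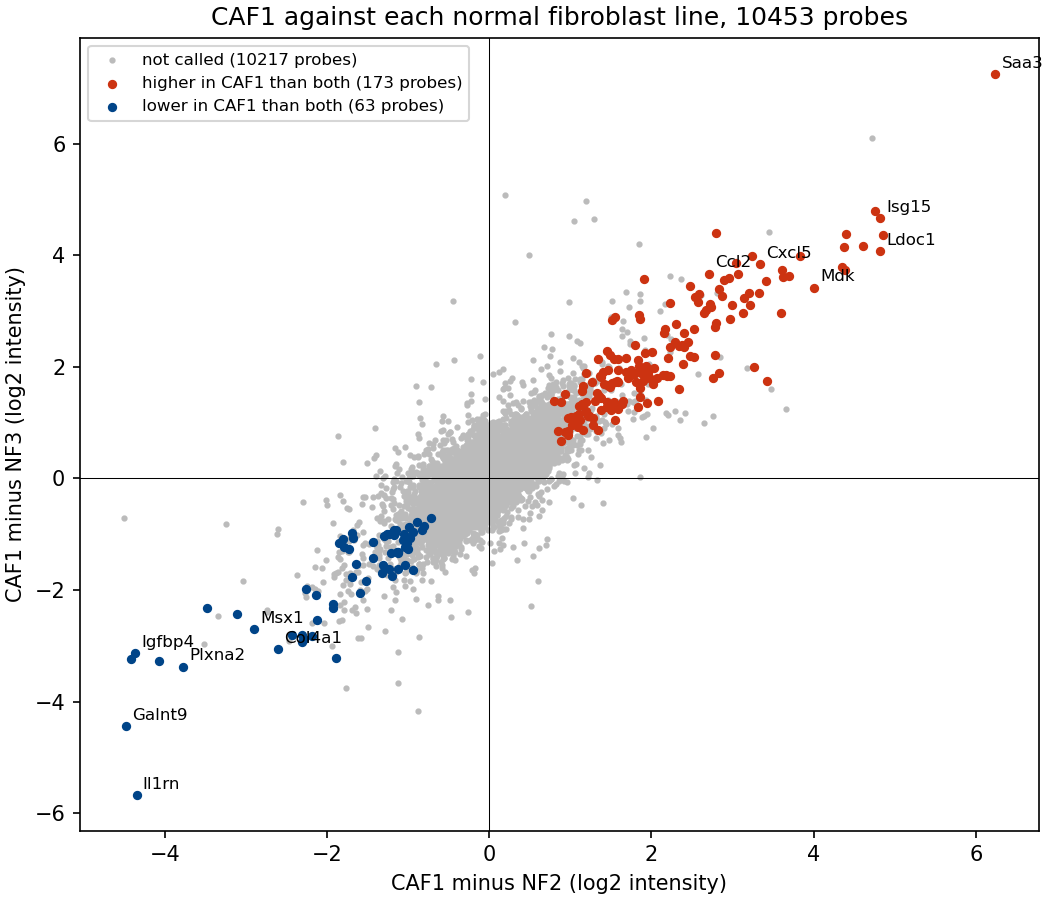
Each point is 1 of 10453 tested probes, with the log2 difference of CAF1 from NF2 on the horizontal and from NF3 on the vertical axis (means of 2 cultures per line). Red points (173) were called higher and blue points (63) lower than both normal lines. The axes share the CAF1 cultures, so the diagonal shape is in part built in. Saa3 lies farthest to the upper right and Il1rn and Galnt9 farthest to the lower left among the called probes.

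Saa3, an acute-phase serum amyloid A protein that mouse fibroblasts and macrophages secrete, showed the largest difference. Its normalised log2 intensity was 7.19 and 8.30 in the NF2 cultures, 5.71 and 7.75 in the NF3 cultures and 13.82 and 14.15 in the CAF1 cultures. The CAF1 arrays were thus far above all 4 normal arrays, the means differing by 6.75 (108-fold; adjusted p = 0.00324 against NF2 and 0.00103 against NF3). Lcn2, which encodes the siderophore-binding lipocalin-2 and was the only other member of the acute-phase and complement list with a difference over 1, read 7.83 and 9.28 in NF2, 5.50 and 8.82 in NF3 and 13.27 in each CAF1 culture. Its difference of 5.41 passed against NF3 (adjusted p = 0.0153) and not against NF2 (0.0811), so it was not called. The other 8 tested members of that list, such as C4b and Clu, lay between -0.62 and 0.83, and the list's median difference was 0.40 against -0.0092 over all genes.

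Lrrc15, a membrane protein used as a marker of a myofibroblast-like subset of cancer-associated fibroblasts, followed. It read between 5.00 and 5.80 on the normal arrays and 10.04 and 10.27 in CAF1 (difference 4.77, adjusted p = 3.85e-05 and 2.46e-05). Several of the leading genes were not detected in any normal culture, and their folds are therefore bounds. Ldoc1, an X-linked nuclear protein gene of retrotransposon origin, was at least 10.3-fold higher, with 4.83 and 5.17 in NF2, 5.03 and 6.45 in NF3 and 9.75 and 9.88 in CAF1. Bnc1, which encodes the zinc finger protein basonuclin, was at least 4.66-fold higher, Csta3, of the stefin family of cysteine protease inhibitors, at least 3.92-fold, and Slc15a3, a lysosomal transporter of histidine and peptides, at least 3.56-fold. Csta3 has close paralogs, so its probe may not be specific to it. On none of these 4 genes did the normal and CAF1 arrays overlap.

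Receptors and enzymes were also among the leading genes. Agtr1a, the angiotensin II receptor, read between 5.64 and 5.95 on the normal arrays and 9.32 and 8.92 in CAF1 (difference 3.33, adjusted p = 0.00258 and 0.00205). Cyp7b1, an oxysterol hydroxylase, read 9.55 and 7.11 in NF2, 7.30 and 9.35 in NF3 and 11.85 and 12.03 in CAF1 (difference 3.62). The cultures of either normal line were over 2 apart for Cyp7b1, yet both CAF1 arrays were higher than all 4 (adjusted p = 0.0248 and 0.0158).

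**Figure D2:**
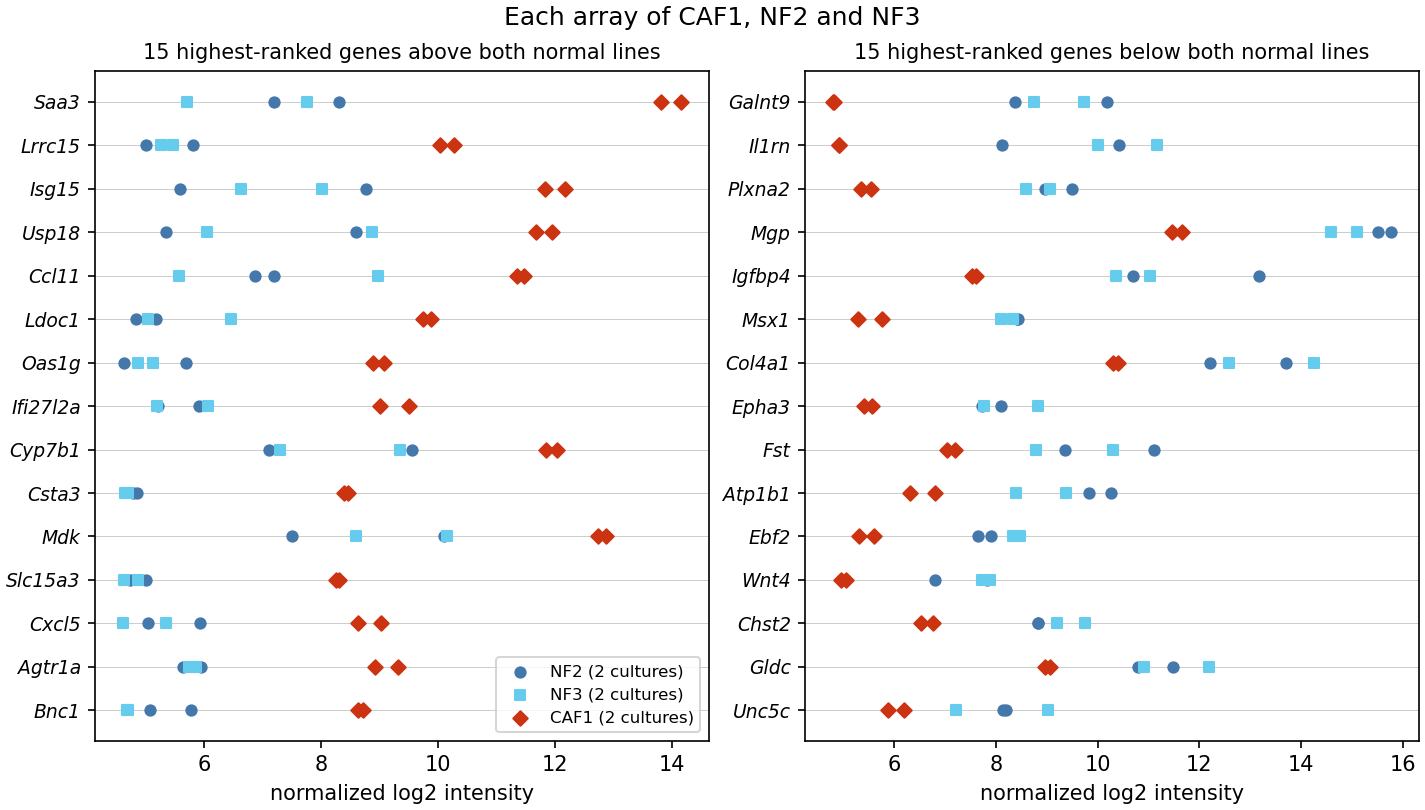
Normalised log2 intensity of each of the 6 arrays for the 15 genes above (left) and the 15 below (right) both normal lines with the largest difference from the nearer line. Circles are NF2, squares NF3 and diamonds CAF1, with 2 cultures each. In every one of the 30 genes both CAF1 arrays lie outside the range of the 4 normal arrays, which the choice of genes by their gap largely builds in. Over all tested probes, both CAF1 arrays lie above that range at 17.1% and below it at 15.3%. For several genes, Isg15, Usp18, Ccl11 and Il1rn among them, the normal cultures are spread over more than 2.

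Of 24 interferon-stimulated genes tested, 9 were called higher in CAF1 and none lower. All 24 had a higher mean in CAF1, and the median difference was 1.75 (1.01 without background correction), beside 1.8% of genes called higher and a median of -0.0092 over all genes. The 9 are Isg15, Usp18, Oas1g, Ifit3, Gbp3, Rsad2, Mx2, Irf7 and Oas2. Here and below, a lower signal from fewer cells of a type cannot be told apart in bulk RNA from less RNA per cell.

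Isg15, a ubiquitin-like modifier, read 8.77 and 5.58 in NF2, 6.62 and 8.02 in NF3 and 11.82 and 12.17 in CAF1 (difference 4.75, adjusted p = 0.0173 and 0.0132). Usp18, the protease that removes it, read 8.59 and 5.34 in NF2, 6.04 and 8.87 in NF3 and 11.68 and 11.95 in CAF1 (difference 4.60, adjusted p = 0.0384 and 0.0382), with 3 of 3 probes called. Within each normal line 1 culture was high and the other low for both genes, NF2 culture 1 and NF3 culture 2 being the high ones. No normal culture reached the CAF1 arrays. Ifit3, which binds foreign RNA in complex with its relatives, read 9.13 and 7.41 in NF2, 6.90 and 8.32 in NF3 and 11.11 and 11.22 in CAF1 (difference 3.23, adjusted p = 0.0356 and 0.00815).

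Other called members were at or near background in the normal lines. Oas1g, of the oligoadenylate synthetases that activate RNase L, was detected on no normal array and was at least 5.78-fold higher in CAF1 (8.88 and 9.08). It belongs to a cluster of near-identical Oas1 genes, so its probe may read its neighbours. Rsad2, the antiviral enzyme viperin, was at least 1.95-fold higher, Irf7, the transcription factor that amplifies interferon production, at least 1.58-fold, and Oas2 at least 1.55-fold. Oas2 was detected on the CAF1 arrays alone, so it was tested only because of its signal there. Gbp3, an interferon-induced GTPase with close paralogs, read between 5.48 and 7.21 on the normal arrays and 8.93 and 9.20 in CAF1. Ifi27l2a, an interferon-induced gene outside the list, had a difference of 3.66 and was also called.

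The members not called ranged from 0.41 for Ifitm3, which blocks viral entry, to 2.94 for Oasl2. Oasl2 and Bst2, the tether that holds virus particles at the cell surface, both exceeded NF3 (adjusted p = 0.0132 and 0.0125) and missed the threshold against NF2 (0.0639 and 0.0612), where culture 1 read 7.71 and 7.36 beside 5.53 and 5.37 in culture 2. The signalling factors Stat2 (0.87), Irf9 (1.20) and Irf1 (0.61) were not called. The number called rests on single arrays: it was 12 of 24 without NF3 culture 2, 5 without NF2 culture 2, 3 without CAF1 culture 1 and 2 without CAF1 culture 2.

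The interferon-stimulated response element, written as 2 copies of GAAA with any 2 bases between them and searched on both strands (matches may overlap), was looked for in the 300 bases from 250 before to 50 after each RefSeq transcription start (build GRCm38.p6). It was found in 3.99% of 27025 genes, in 3.74% of tested genes and in 13.7% of the genes called higher (13 of 95 with a promoter in the table) against 5.0% of those called lower (2 of 40). Of the called interferon genes, 5 of 6 with a promoter in the table held it (Isg15, Ifit3, Rsad2, Gbp3 and Oas1g), as did 5 of 11 members that were tested and not called. Promoters of 3 of those 5 are shown because these genes carry the interferon result, with every match in capitals: Isg15 at chr4:156200769-156201068 (minus strand), where 3 matches overlap in 1 run, Ifit3 at chr19:34583279-34583578 (plus strand), with 2 matches in reverse orientation, and Rsad2 at chr12:26456403-26456702 (minus strand), with 1. A match describes these letters and is no evidence of a bound factor.
Isg15: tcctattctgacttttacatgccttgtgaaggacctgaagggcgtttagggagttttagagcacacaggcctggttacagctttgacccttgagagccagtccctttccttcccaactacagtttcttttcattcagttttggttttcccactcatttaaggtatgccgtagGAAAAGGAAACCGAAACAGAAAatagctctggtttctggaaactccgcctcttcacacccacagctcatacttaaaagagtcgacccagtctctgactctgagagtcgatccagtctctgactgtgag
Ifit3: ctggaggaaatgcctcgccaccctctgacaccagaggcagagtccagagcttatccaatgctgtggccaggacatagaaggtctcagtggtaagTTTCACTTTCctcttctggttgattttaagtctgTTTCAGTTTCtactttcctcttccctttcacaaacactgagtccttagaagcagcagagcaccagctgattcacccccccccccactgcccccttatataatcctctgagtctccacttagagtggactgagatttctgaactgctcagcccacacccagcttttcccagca
Rsad2: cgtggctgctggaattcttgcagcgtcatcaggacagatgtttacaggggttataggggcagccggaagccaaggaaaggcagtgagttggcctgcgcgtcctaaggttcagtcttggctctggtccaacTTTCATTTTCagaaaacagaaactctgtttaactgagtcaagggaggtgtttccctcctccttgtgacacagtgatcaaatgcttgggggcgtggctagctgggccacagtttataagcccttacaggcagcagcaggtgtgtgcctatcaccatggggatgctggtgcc

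Of 12 genes of MHC class I antigen presentation tested, which interferon can induce, 3 were called higher in CAF1 (25%, beside 1.8% of all tested genes) and none lower. All 12 had a higher mean, with a median difference of 0.80 (0.48 without background correction), and the 3 were H2-T23 (difference 1.64), H2-D1 (1.41) and the immunoproteasome subunit Psmb8 (1.10). H2-D1 was detected on no normal array and read 6.26 and 6.67 in CAF1, at least 1.01-fold higher, and Psmb8 was at least 1.14-fold higher. Both were detected on the CAF1 arrays alone. They were thus tested only because of their signal in CAF1, and their calls are no independent support. Only 1 of 2 tested probes of H2-T23 was called, and the difference of the other had the opposite sign. The class I heavy chains are near-identical copies whose probes may not tell them apart. B2m, the light chain they share, read 13.27 and 12.48 in NF2, 12.51 and 12.95 in NF3 and 13.25 and 13.29 in CAF1, so that CAF1 overlapped NF2 (difference 0.47, not called). Leaving out either CAF1 culture left none of the 3 called.

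Of 16 chemokines tested, which draw leukocytes into tissue, 8 were called higher in CAF1 (50%, beside 1.8% of all tested genes) and none lower. In all, 13 had a higher mean, and the median difference was 2.30. Ccl11, the eosinophil attractant eotaxin, read 6.87 and 7.20 in NF2, 5.57 and 8.96 in NF3 and 11.34 and 11.47 in CAF1 (difference 4.26, adjusted p = 0.0193 and 0.0161), with both of its probes called. Ccl2, which recruits monocytes, read 8.47 and 8.69 in NF2, 7.20 and 8.02 in NF3 and 11.26 and 11.31 in CAF1 (difference 3.19, adjusted p = 0.00556 and 0.000526). For both genes every normal culture lay below the CAF1 cultures.

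Cxcl5, a neutrophil attractant, and Cxcl10, an interferon-induced T cell attractant, were detected on no normal array. Cxcl5 read between 4.61 and 5.93 there and 8.63 and 9.02 in CAF1, at least 5.20-fold higher (adjusted p = 0.000279 and 7.48e-05). Cxcl10 read between 4.71 and 5.13 and then 8.00 and 8.13, at least 3.06-fold higher (adjusted p = 0.000229 and 0.000197). Ccl5 (2.50), Ccl7 (2.36), Cxcl16 (1.82) and Ccl3 (1.03) were the other called members. Ccl7, also a monocyte attractant, was detected everywhere, at 9.95 to 11.07 on the normal arrays and at 12.77 and 13.03 in CAF1.

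Cxcl1, the other main neutrophil attractant of fibroblasts, showed a difference of 3.93 without a call. It read 10.22 and 11.98 in NF2, 11.47 and 8.78 in NF3 and 14.54 in each CAF1 culture (adjusted p = 0.0908 and 0.0189). Cxcl14 separated the normal lines, with 10.49 and 9.08 in NF2 and 5.00 and 4.79 in NF3, and CAF1, at 9.91 and 10.05, lay within the NF2 range. Cxcl12, which binds CXCR4, was not called (10.60 and 10.68 in CAF1, 8.48 to 12.75 in the normal lines). The chemokine count was 4 without CAF1 culture 2, 5 without culture 1 and 10 without NF3 culture 1.

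Of 17 Toll-like receptor and NF-kappa-B feedback genes tested, 7 were called higher in CAF1 (41.2%, beside 1.8% of all tested genes) and none lower. In that list 3 had a lower mean, and the median difference was 0.91 (0.49 without background correction). Tnfaip3, the A20 protein that shuts NF-kappa-B signalling off, read between 4.55 and 4.84 on the normal arrays, none of which detected it, and 7.53 and 7.43 in CAF1, at least 2.04-fold higher (adjusted p = 0.000213 and 0.00014). Icam1, the leukocyte adhesion molecule, read 6.66 and 6.20 in NF2, 5.68 and 5.75 in NF3 and 8.95 and 9.09 in CAF1 (difference 2.95). Sod2, the mitochondrial superoxide dismutase that NF-kappa-B induces, read 9.82 to 10.15 on the normal arrays and 11.99 in both CAF1 cultures (difference 1.98, adjusted p = 0.00318 and 0.00183). Normal and CAF1 arrays were separate for all 3 genes.

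Tlr2, a receptor for bacterial lipopeptides, had a difference of 2.30 (adjusted p = 0.00736 and 0.00377). Nfkbiz, a nuclear co-regulator, Zc3h12a, an RNase that degrades cytokine transcripts, and Relb, a subunit of NF-kappa-B, had differences of 2.10, 1.56 and 0.91. Nfkbia, the classical inhibitor, was not called (1.10), nor were Tlr4 (0.08), Myd88 (-0.13) and Rela (0.23). The count was 4 without CAF1 culture 2 and 5 without CAF1 culture 1, NF2 culture 1 or NF2 culture 2.

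An NF-kappa-B site, searched by name on both strands in the same windows, was present in 9.55% of genes in the table and in 12.2% of tested genes. It was found in 3 of 5 called members of this list with a promoter (Sod2, Tlr2 and Tnfaip3) and in 4 of 7 members tested and not called, and in 17.9% of all genes called higher (17 of 95) against 10.0% of those called lower (4 of 40). Tnfaip3 at chr10:19015361-19015660 (minus strand) is shown with its 2 NF-kappa-B matches in capitals. Cxcl10 at chr5:92348840-92349139 (minus strand) is shown because it held both motifs; of the 8 called chemokines, 2 had a promoter in the table, with its single interferon element in capitals and its 3 NF-kappa-B matches, of which 2 overlap, left in lower case.
Tnfaip3: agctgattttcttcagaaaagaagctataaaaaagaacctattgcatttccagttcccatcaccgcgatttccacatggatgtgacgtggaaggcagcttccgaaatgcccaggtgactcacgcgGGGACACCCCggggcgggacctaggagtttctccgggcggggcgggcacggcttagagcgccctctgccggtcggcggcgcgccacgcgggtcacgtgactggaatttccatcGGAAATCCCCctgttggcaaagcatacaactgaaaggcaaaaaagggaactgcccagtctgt
Cxcl10: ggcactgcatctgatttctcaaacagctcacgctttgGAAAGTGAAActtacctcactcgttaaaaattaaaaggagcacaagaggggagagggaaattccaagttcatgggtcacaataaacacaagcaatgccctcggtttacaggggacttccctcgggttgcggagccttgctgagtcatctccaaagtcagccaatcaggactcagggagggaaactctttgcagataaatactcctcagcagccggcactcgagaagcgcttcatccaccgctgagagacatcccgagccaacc

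**Figure D3:**
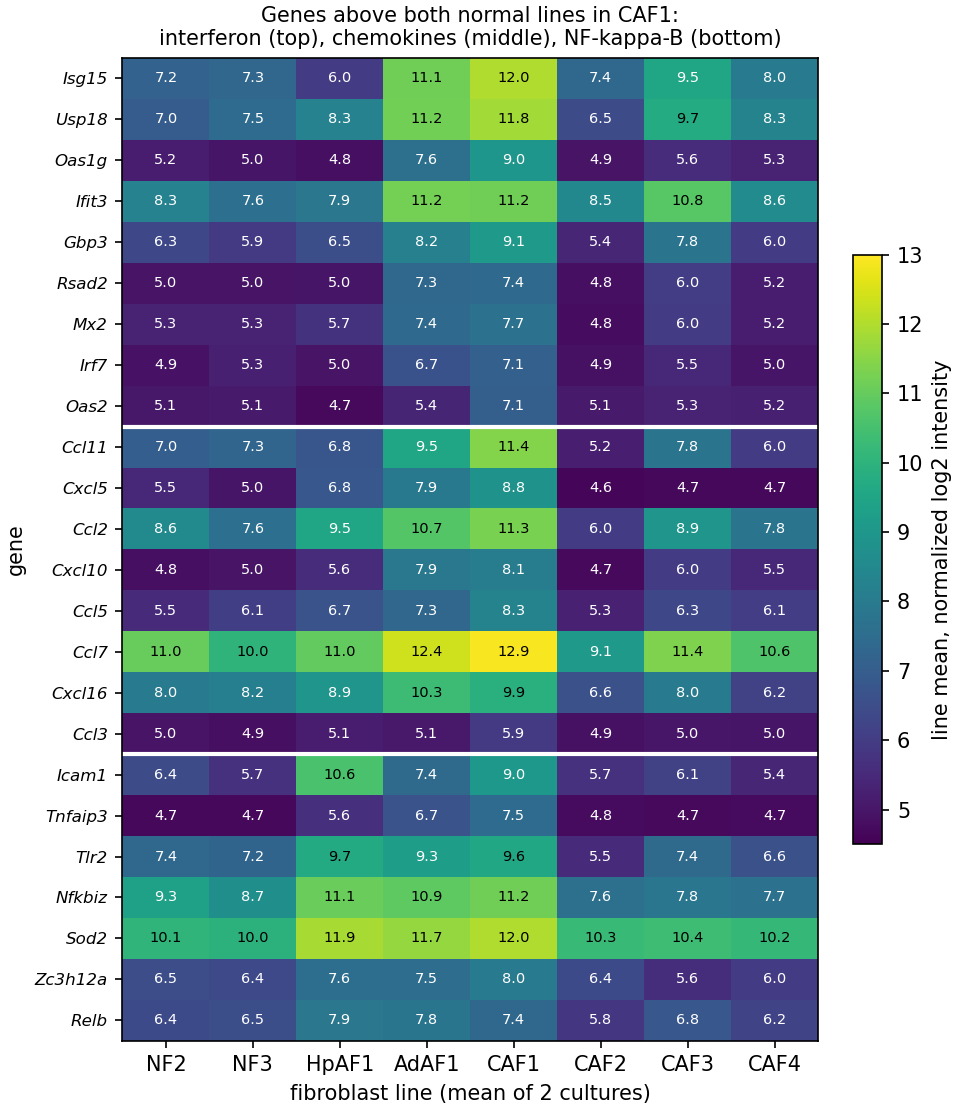
Mean normalised log2 intensity of 2 cultures per line for the called members of the interferon (top 9 genes), chemokine (middle 8) and NF-kappa-B (bottom 7) lists, with lines in columns and the value printed in each cell. The genes were chosen for their difference between CAF1 and the columns NF2 and NF3, so that contrast is built in. AdAF1 reads 11.15 for Isg15 beside 11.99 in CAF1, and HpAF1 reads 5.98.

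Cytokines were mixed. Il6, which activates STAT3, and Lif, of the same family, were called higher, at least 1.27-fold and at least 1.31-fold, neither being detected on a normal array. Il6 read between 4.92 and 5.32 on the normal arrays and 6.56 and 7.02 in CAF1 (adjusted p = 0.00324 and 0.0014). It was detected on the CAF1 arrays alone and tested only because of that signal, so its p-values are no independent support. In the other direction, Il1rn, the secreted antagonist of the interleukin-1 receptor, read 10.41 and 8.12 in NF2, 11.17 and 10.01 in NF3 and 4.91 and 4.92 in CAF1, where it was not detected. CAF1 was at least 17.0-fold lower (adjusted p = 0.00493 and 0.000611), and no array of a normal line came near it. The remaining 8 of the 11 tested members, Il33 and Il11 among them, were not called, and the median was 0.66. Of the list 18.2% was called higher and 9.09% lower, beside 1.8% and 0.657% of all tested genes. Il1a, Il1b and Il1r1 were not tested because they did not pass the detection filter.

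Growth factors and their binding proteins included large differences both ways. Mdk, the heparin-binding growth factor midkine, read 7.50 and 10.10 in NF2, 8.60 and 10.16 in NF3 and 12.88 and 12.73 in CAF1 (difference 3.71, adjusted p = 0.00708 and 0.0119), with 3 of 3 probes called. Vegfa, the main inducer of vessel growth, was called higher (1.18, 1 of 2 probes) and Vegfd, a lymphatic growth factor, lower (-1.68). Of the 21 growth factors tested, 16 had a higher mean, with a median of 0.88 (0.42 without background correction), and Fgf2 (1.31), Fgf7 (1.05) and Igf1 (0.92) were not called. Called were 9.52% higher and 4.76% lower, beside 1.8% and 0.657% of all tested genes.

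Igfbp4 and Igfbp5 bind insulin-like growth factors, and they differed in opposite directions. Igfbp4 read 13.18 and 10.70 in NF2, 10.36 and 11.03 in NF3 and 7.52 and 7.62 in CAF1 (difference -3.75, adjusted p = 0.0129 and 0.0402). Igfbp5 read 6.68 and 7.25 in NF2, 6.03 and 7.67 in NF3 and 10.12 and 10.22 in CAF1 (difference 3.26, adjusted p = 0.0234 and 0.0129). All CAF1 arrays were outside the normal range for both. Igfbp2 (3.03) and Gpc3 (2.58) were not called; NF2 culture 2 read 8.32 for the first and NF3 culture 2 read 7.58 for the other. Igfbp4 and Igfbp5 were the 2 calls among 10 tested, with a median of 0.58. That is 10% each way, beside 1.8% higher and 0.657% lower of all tested genes. Igfbp4 lost its call in 8 of 12 alternative settings, among them the authors' own normalised values.

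Matrix and guidance proteins were among the lower genes with the largest differences. Mgp, the matrix Gla protein that inhibits calcification, read 15.51 and 15.77 in NF2, 14.60 and 15.09 in NF3 and 11.66 and 11.47 in CAF1 (difference -3.68, adjusted p = 2.37e-06 and 9.04e-06). Col4a1, a chain of basement membrane collagen IV, read 12.21 and 13.71 in NF2, 12.58 and 14.25 in NF3 and 10.40 and 10.30 in CAF1 (difference -2.84, adjusted p = 0.0314 and 0.009). Its partner chain Col4a2, which shares its promoter region, had a difference of -2.69 and missed the threshold against NF2 (adjusted p = 0.0787 and 0.0231). For all 3 genes each CAF1 array was below each normal array. Of 12 basement membrane genes tested, Col4a1 alone was called (8.33%, beside 0.657% of all tested genes called lower). In that list 9 had a lower mean and the median was -0.51. With median scaling it was -0.20, where the median of all probes was 0.286. Galnt9, which starts mucin-type O-glycans, read 8.38 to 10.20 on the normal arrays and 4.81 and 4.80 in CAF1, where it was not detected (at least 10.8-fold lower).

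Plxna2, a semaphorin receptor, read 8.97 and 9.49 in NF2, 9.07 and 8.59 in NF3 and 5.55 and 5.35 in CAF1, where it was not detected. It was at least 9.14-fold lower (adjusted p = 0.000198 and 0.000268). Epha3, a receptor for ephrin-A ligands, read 8.10 and 7.74 in NF2, 8.82 and 7.77 in NF3 and 5.41 and 5.56 in CAF1, at least 4.82-fold lower, with 1 of its 2 probes called. Its ligand Efna5 was also called lower (-1.29, 1 of 2 probes), as was the netrin receptor Unc5c (-2.11). Efna5 kept its call in 4 of 12 alternative settings and Unc5c in 3. Sema3a, a secreted semaphorin, went the other way: it was detected on no normal array and read 8.04 and 8.13 in CAF1, at least 3.11-fold higher (adjusted p = 0.000711 and 0.000143). The guidance list, which does not include Plxna2 or Unc5c, held 1 higher call (Sema3a) and 2 lower calls (Epha3 and Efna5) among 14 tested. That is 7.14% and 14.3%, beside 1.8% and 0.657% of all tested genes. Its median was -0.31, or 0.0016 with median scaling, where the median of all probes was 0.286. Without either CAF1 culture, Sema3a was its only called member.

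Developmental regulators were among the lower genes too. Msx1, a homeobox factor downstream of BMP signals, read 8.43 and 8.42 in NF2, 8.10 and 8.34 in NF3 and 5.30 and 5.76 in CAF1, undetected there and at least 5.60-fold lower (adjusted p = 0.000119 and 0.000107). Ebf2, a helix-loop-helix factor of adipose and stromal precursors, was at least 4.77-fold lower, with both probes called. Wnt4, a ligand of mammary branching, was at least 3.30-fold lower, with 1 of 2 probes called. Fst, the activin antagonist follistatin, read 9.35 and 11.10 in NF2, 10.29 and 8.78 in NF3 and 7.19 and 7.04 in CAF1 (difference -2.77, adjusted p = 0.023 and 0.0451). CAF1 did not overlap the normal arrays in any of these 4.

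The lists around these genes held few calls, and over all tested genes 1.8% were called higher and 0.657% lower. Wnt4 was the single call among 14 Wnt ligands and modulators (10 with a lower mean, median -0.60). Fst was the single call among 20 genes of TGF-beta and BMP signalling (median -0.24). With median scaling the latter median was 0.08, below the 0.286 of all probes. Wnt4 kept its call in 6 of 12 alternative settings and Fst in 4. With the authors' normalised values neither was called. Dkk3, a secreted protein of the Dickkopf family, read 8.72 and 8.86 in NF2, 6.93 and 8.72 in NF3 and 10.77 and 11.15 in CAF1. Its brightest probe narrowly missed the threshold against NF2 (adjusted p = 0.0547), while 2 of its 3 probes were called higher. Rspo3, which amplifies Wnt signals, was not called, with 7.55 and 6.00 in NF2, 7.51 and 5.19 in NF3 and 4.98 and 5.09 in CAF1. None of 16 tested HOX genes was called (12 with a lower mean, median -0.51), Hoxb5 (-1.84) and Hoxa2 (-1.79) having the largest differences.

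Atp1b1, a sodium pump subunit, Chst2, a sulfotransferase, and Gldc, the glycine decarboxylase, were called lower by 2.90, 2.51 and 2.33 on the log2 scale. Gldc was the single call among 8 genes of serine and one-carbon metabolism (12.5%, beside 0.657% of all tested genes called lower). The median of that list was -0.30, or 0.01 with median scaling, where the median of all probes was 0.286. Both probes of Gldc were called. Gldc read 11.48 and 10.80 in NF2, 10.91 and 12.20 in NF3 and 8.98 and 9.06 in CAF1, so the groups did not overlap.

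The contractile and matrix genes by which cancer-associated fibroblasts are often recognised were not called. Over all tested genes 1.8% were called higher and 0.657% lower. At those shares lists of this size often hold no call, so the counts here say little about their members. Acta2, smooth muscle actin, read 15.19 and 15.33 in NF2, 15.71 and 14.00 in NF3 and 15.71 and 15.51 in CAF1 (difference 0.55, adjusted p = 0.738 and 0.289). Of 19 contractile genes tested none was called, 16 had a higher mean and the median was 0.34. The largest differences were those of Actg2, smooth muscle gamma-actin (2.37, adjusted p = 0.07 and 0.0262), and Mylk, myosin light chain kinase (-1.78, adjusted p = 0.0908 and 0.0166). Pdgfra (0.95), Pdgfrb (-0.80), S100a4 (-0.56) and Vim (-0.63) were not called, nor was any of the 20 fibroblast and cancer-associated fibroblast markers (median -0.44).

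Collagen genes of the fibrillar list were not called either, beside 1.8% of all tested genes called higher and 0.657% lower. Col1a1 read 12.08 and 10.56 in NF2, 11.73 and 10.69 in NF3 and 10.65 and 11.00 in CAF1, within the normal range. Col3a1, the other fibrillar collagen examined by name, had a difference of -1.49 and a spread between cultures of over 1 in NF2 and in CAF1 (adjusted p = 0.249 and 0.191). No member was called among 15 genes of the fibrillar matrix (median -0.15), 13 of elastic fibres and microfibrils (-0.10), 14 of collagen crosslinking (-0.18), 10 protease inhibitors (-0.19), 18 matrix proteases (-0.31) or 9 integrin subunits (-0.39). With median scaling the first 4 of these medians lay above 0, between 0.02 and 0.21, but below the 0.286 of all probes. Mmp3, the stromelysin that cleaves matrix, read 11.24 and 10.97 in NF2, 6.15 and 8.49 in NF3 and 12.31 and 12.29 in CAF1. It passed against NF3 (adjusted p = 0.00308) and not against NF2 (0.508).

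YAP and TAZ, co-activators that respond to tension, control a set of genes of which 16 were tested. Of these 1 was called, the kinase gene Nuak2 (-1.86 against NF2 and -1.15 against NF3). That is 6.25%, beside 0.657% of all tested genes called lower. Ccn2, the connective tissue growth factor, read 14.56 and 15.19 in NF2, 14.20 and 13.86 in NF3 and 14.38 and 14.32 in CAF1, between the normal lines. Ccn1 (1.08) and Ankrd1 (2.08) were not called, and NF3 culture 2 read 6.46 for Ankrd1 beside 10.17 to 10.64 in the other normal cultures. Cdc42ep3, an organiser of actin and septins, read 8.94 and 7.96 in NF2, 9.54 and 6.62 in NF3 and 10.63 and 10.65 in CAF1. Its difference of 2.38 missed the threshold against NF2 (adjusted p = 0.128 and 0.0458).

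Over all tested genes 1.8% were called higher and 0.657% lower, and lists of general cell state held few calls or none. There was none among 21 genes of DNA replication and mitosis (17 with a higher mean, median 0.33), 19 p53 targets (0.01), 19 genes of sterol and fatty acid synthesis (0.04), 15 of the unfolded protein response (-0.13, or 0.18 with median scaling) or 22 NRF2 and oxidative stress genes (0.44). With median scaling the median of all probes was 0.286. Among 17 hypoxia and glycolysis genes 1 was called, Vegfa (median 0.41). Ier3, an early response gene, was the single call among 18 ETS and MAPK feedback genes (difference 2.14, list median 0.21). Of the Schwann cell markers on the array, Ngfr, the low-affinity neurotrophin receptor, was at least 1.19-fold higher and Mbp, myelin basic protein, higher by 1.87, while S100b was detected on none of the 6 arrays. Both tested Schwann cell markers were called higher (100%, beside 1.8% of all tested genes). Ngfr was detected on the CAF1 arrays alone, so it was tested only because of its signal there. The part of other cells in these values was not tested.

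**Figure D4:**
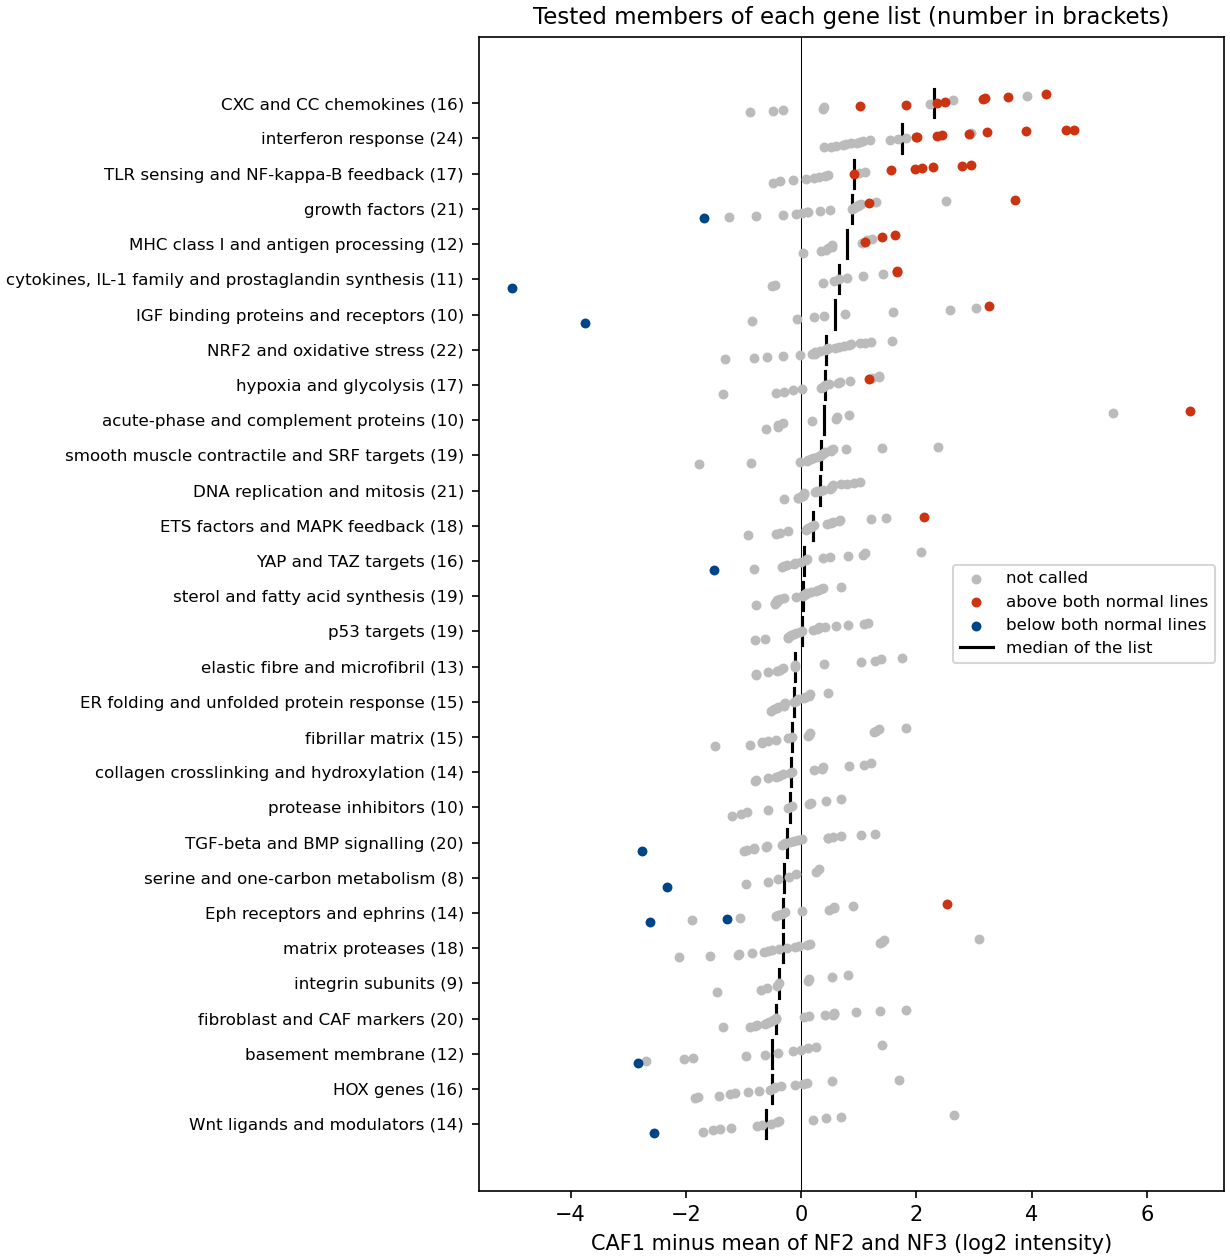
Each point is 1 tested member of a gene list, placed by the log2 difference of CAF1 from the mean of NF2 and NF3. Red and blue points were called above and below both normal lines, grey points were not called, black bars are list medians and bracketed numbers give the members tested. The chemokine (median 2.30), interferon (1.75) and NF-kappa-B (0.91) lists stand at the top with 8, 9 and 7 red points, and the Wnt list (-0.60) at the bottom with 1 blue point.

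When lines rather than cultures were the replicates, 18 probes passed between CAF1 and the mean of the normal lines (0.172%; limma on line means, 16 higher and 2 lower), and 970 had an unadjusted p under 0.05 (9.28%). In this fit the lone CAF1 line is assumed to vary like the normal and the other carcinoma lines. The smallest p-values in the upward direction belonged to Csta3, Slc15a3, Rxfp1, Mrap and Tnfaip3, each with an adjusted p of 0.0205. Csta3, Slc15a3, Rxfp1 and Mrap were detected on the CAF1 arrays alone. They were thus tested only because of their signal in CAF1, and their p-values are no independent support. Rxfp1, the relaxin receptor, read between 4.55 and 4.72 on the normal arrays and 7.68 and 7.96 in CAF1, and Mrap, an accessory protein of melanocortin receptors, between 4.53 and 4.91 and then 7.46 and 7.70. Downward, Epha3 (adjusted p = 0.0328) and Col4a1 (0.0346) passed, and Plxna2 (0.0733), Msx1 (0.0853) and Tsc22d3 (0.0678), a glucocorticoid-induced leucine zipper protein, did not. Of the 18 probes, 13 were detected on no normal array, and their median residual SD was 0.188, against 0.247 over all tested probes. None passed when probes had to be detected on 4 arrays or when NF2, NF3 or CAF4 was left out, so each of these calls depended on which lines and probes were included.

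The other lines give a scale for these values. Saa3 averaged 14.00 in the hyperplasia line HpAF1 and 13.98 in the adenoma line AdAF1, and 5.58, 6.44 and 7.01 in the carcinoma lines CAF2, CAF3 and CAF4. Isg15 averaged 11.99 in CAF1, 11.15 in AdAF1 and 9.49 in CAF3, and between 5.98 and 8.01 in HpAF1, CAF2 and CAF4. Csta3 was near background in all the other lines (4.74 to 4.87). Among lower genes, Galnt9 was near background in HpAF1 (4.91), AdAF1 (4.74) and CAF2 (4.91) as in CAF1, whereas Msx1 lay between 8.22 and 9.36 in all 5 other lines. Col4a1 averaged 10.12 in HpAF1, close to the 10.35 of CAF1, and 11.89 to 13.61 elsewhere among the lesion lines.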

How the data were processed

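The 16 arrays hold 25697 probes each. Per the file headers, the authors deposited the intensity of each probe without normalization, with a detection p-value against negative controls. A deposited table of normalized intensity, quantile normalized by the authors to judge by its values, served as an alternative. No label or header names the scanner software. The number of arrays limits the precision.

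Background correction, quantile normalization and log2 transformation were done with neqc (offset 16) in limma 3.58.1 under R 4.3.3, and probes with a detection p under 0.01 on at least 2 of 16 arrays were tested (10453, 40.7%). Platform annotation names 1 gene for 23978 probes, several for 0 and none for 1719. A gene stands for its tested probe of highest mean. In the culture model each line had a mean and all 16 arrays shared 1 spread (8 residual degrees of freedom). Two-sided p-values were adjusted by Benjamini-Hochberg over all tested probes. The median absolute difference between cultures was 0.35 in NF2, 0.39 in NF3, 0.13 in CAF1 and 0.15 to 0.32 in the other lines. A shared spread does not tell these lines apart, and it is below that of the normal lines where they vary most. In the line model cultures were averaged (3 residual degrees of freedom). Where a probe was undetected on every array of the lower group, the fold is a bound against the higher of that array's lowest detected signal and the probe's own, averaged over arrays. Folds of dim probes depend on the background correction and were smaller without it: the median difference of the interferon list was 1.75 with it and 1.01 without. The code was tested on simulated data.

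Genes were named by rule: the 15 genes each way called with the largest gap to the nearer normal line among those detected on every array of the higher side, up to 4 called members of a list (or 2 uncalled), a list of literature genes, and the 5 smallest p over lines each way. Other list members, and genes in the closing section, were named after their values were seen. The 30 pathway and 9 marker lists, and the comparison itself, were chosen with earlier results of these data known. Promoters are from RefSeq (GRCm38.p6), where listed.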

Additional observations from a re-analysis of the deposited data

Results flagged for a closer look

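Among the 4 normal arrays, 1 array stood apart from the other 3 for 7 of the 106 named genes, and chance flags about 1 in 20. NF2 culture 2 was low for Wnt4 (6.81 against 7.73 to 7.88). NF2 culture 1 was low for Upk1b (6.03 against 7.47 to 7.70) and high for Tnnt1 (5.21 against 4.62 to 4.68). NF3 culture 1 was high for Mylk (10.14 against 8.95 to 9.11) and low for Dkk3 (6.93 against 8.72 to 8.86), and NF3 culture 2 was low for Timp3 (9.72 against 11.17 to 11.40) and for Ankrd1 (6.46 against 10.17 to 10.64).

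CAF1 also differed from the mean of the other carcinoma lines CAF2, CAF3 and CAF4 at 20 of 106 named genes, by limma over lines at an adjusted p under 0.05. This contrast shares the CAF1 line with the comparison against normal lines, and many named genes were chosen for their difference in that comparison. The share over all tested probes is not given here, so the count does not measure how often CAF1 departs from the other carcinoma lines. Higher in CAF1 were Saa3 by 7.64, Mdk by 5.79, Ldoc1 by 4.91, Cxcl5 by 4.16, Oas1g by 3.69, Bnc1 by 3.67, Csta3 by 3.65, Slc15a3 by 3.48, Icam1 by 3.27, Rxfp1 by 3.11, Mrap by 2.94, Tnfaip3 by 2.74, Il6 by 1.81, Lif by 1.78, Ngfr by 1.78 and Sod2 by 1.73 on the log2 scale. Lower in CAF1 were Plxna2 (-4.02), Msx1 (-3.33), Col4a1 (-3.14) and Tsc22d3 (-2.98). Adjusted p-values ran from 0.00815 for Ldoc1, Csta3, Mdk, Slc15a3 and Cxcl5 to 0.0476 for Sod2. Csta3, Slc15a3, Rxfp1, Mrap, Il6 and Ngfr were detected on the CAF1 arrays alone. They were tested only because of that signal, so their p-values are no independent support.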

How the results depend on the processing

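No call was reversed under any alternative tried. Against 173 higher and 63 lower probes, an adjusted p under 0.10 gave 282 and 131, the 6 arrays alone 59 and 6, median scaling 22 lower, and leaving out 1 culture 59 to 211 higher and 8 to 98 lower. No filter gave 171 and 52, and detection on 4 arrays 130 and 61. The authors' values gave 209 and 64 and kept 202 of 236 calls. Over lines, against 18 probes, 6 passed without a filter, 0 with detection on 4 arrays, 47 at an adjusted p under 0.10, 362 with arrays taken as independent, 142 with line as a random block, 43 with CAF1, NF2 and NF3 alone, and 0 to 23 when a line or culture was left out. For these changes the cause was not tested, beyond the fewer samples or probes that some of them use.

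Differences between cultures 1 and 2 correlated at 0.24 for NF2 with NF3, -0.13 for NF2 with CAF1 and 0.04 for NF3 with CAF1, and over all 28 pairs of lines from -0.20 to 0.65, with 12 over 0.1. Since not every pair was over 0.1, culture numbers were not taken to pair the samples. Some lines deviated together all the same, the normal lines of the comparison among them. The correlation was 0.65 for CAF2 with CAF4, 0.45 for NF3 with CAF3 and 0.35 for NF2 with CAF3. With culture number as a replicate block, 208 probes were higher and 86 lower and all 236 calls were kept. Over lines the replicate block with line as a random block gave 129.

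Among uncalled named genes, 31 calls were gained over all settings and 4 values changed sign. Probes undetected on a group's arrays have only bounds, and low signals limit their precision.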

Other observations

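Several called genes outside the lists were named after their values were seen. Pgr, the progesterone receptor, and Greb1, an oestrogen-responsive gene, were detected on no normal array and were at least 1.47-fold and at least 4.67-fold higher in CAF1. Pgr read 4.71 to 4.96 on the normal arrays and 6.78 and 7.22 in CAF1, and averaged 7.00 in AdAF1. Greb1 read 4.73 to 5.93 and then 8.82 and 8.53, and averaged 9.67 in AdAF1. The neuropeptide Y receptor gene Npy1r was higher by 2.75 (adjusted p = 0.00202 and 2.05e-05). Trf, transferrin, was at least 2.34-fold higher, and Rarres2, the adipokine and leukocyte attractant chemerin, was higher by 3.28. The antimicrobial peptide gene Camp (2.58) and the chitinase-like Chil1 (2.96) were called higher as well.

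By chromosome, the share of tested genes called higher was lowest on chromosome 8 (0.252%, 1 of 397). It was highest on chromosome 17 (3.46%, 13 of 376), beside 1.8% of all tested genes. Chromosome 11 had 2.79% (18 of 645), chromosome 9 had 2.47% and chromosome 7 had 2.32%. Chromosome 17 carries the MHC and chromosome 11 the Ccl cluster, and the part of these clusters in the shares was not tested. The higher genes on chromosome 17 included the class I genes H2-T10 (2.37) and H2-Q8 (1.66), whose probes may read near-identical copies. Among lower genes outside the lists were the transcription factors Snai1 (-1.23), Sox9 (-1.13) and Hlx (-1.43), the vitamin K-dependent receptor ligand Gas6 (-1.33) and the scavenger receptor Scara3 (-2.55).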
